A study of Saccharomyces cerevisiae with 20 samples.

Results

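The 655 features described here are the meiotic unannotated transcripts (MUTs) whose median over 20 mRNA libraries from yeast colonies reached 1 CPM (1 count in 1000000). They were taken from 977 features whose identifier begins with MUT and a digit, among 12131 features in all. The other 322 MUTs fell below 1 CPM, and 75 MUTs had no count in any library. CPM was computed over the read pairs on the 5556 features that are not reference ORFs, so a CPM value of a MUT is a level among noncoding and nonreference transcripts.

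Each library came from whole colonies, several pooled, of *Saccharomyces cerevisiae* F45, a haploid *MAT*a segregant that forms fluffy colonies, grown for 4 days on rich glucose plates with G418. All strains carried *ho*∆0::*hphMX6* (the mating type switch gene deleted), the sporulation reporter *SPS2*:*EGFP*:*natMX4*, and an unmapped serine auxotrophy. The 5 groups of 4 libraries differed in a low-copy centromeric plasmid, which held *SFL1* (a repressor of flocculin genes), *HEK2* (an RNA-binding protein), *SAN1* (a nuclear ubiquitin ligase), *ROF1* (a transcription factor gene), or *TOS8* (a homeodomain protein gene), each with its own promoter. F45 without these genes was not analysed here, so every difference is between plasmid strains. The questions put to the MUTs were how they differed between *TOS8* and the other 4 strains, between *SFL1* with *HEK2* and *SAN1* with *ROF1*, and within each of those pairs.

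MUTs were first mapped in diploid yeast going through sporulation, where they accumulate as meiosis proceeds. Like the cryptic and stable unannotated transcripts of growing cells, many start in nucleosome-free regions beside genes, often on the strand opposite to a gene. Their low level in growing cells is tied to the nuclear exosome, whose exonuclease Rrp6 degrades them. In the colonies examined here, meiotic mRNAs were measured at a range of levels. Of 47 listed meiosis and sporulation genes, 11 were below 1 CPM, here over ORF pairs, and the 47 had a median of 2.73. *NDT80*, the activator of the middle sporulation genes, had a median of 3.39, *SPO11*, which makes meiotic DNA breaks, 2.73, and *SPS2* 0.908. The genes of early regulators were higher, with medians of 48.6 for *RIM4*, 25.7 for *IME1*, and 15.4 for *IME2*, as were some later genes (*DIT1* 21.0, *SGA1* 18.0, *SPS4* 17.1).

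The starts of the MUTs on which the results turn are given below from the RefSeq S288c genome (build R64), as read on the strand of the MUT, with the 80 bases before the start in lower case and the first 60 bases of the MUT in capitals. MUT1491.3 (chrXVI:548204-548343, minus), MUT33.1 (chrI:70991-71130, plus), and MUT1314.1 (chrXV:357571-357710, minus) are shown because they rose in *TOS8*: the first by the largest amount among the called MUTs, the second upstream of a gene that was not called, and the third from near silence.
MUT1491.3: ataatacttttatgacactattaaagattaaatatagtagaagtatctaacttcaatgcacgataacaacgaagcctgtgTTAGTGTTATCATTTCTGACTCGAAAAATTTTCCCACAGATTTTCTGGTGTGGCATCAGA
MUT33.1: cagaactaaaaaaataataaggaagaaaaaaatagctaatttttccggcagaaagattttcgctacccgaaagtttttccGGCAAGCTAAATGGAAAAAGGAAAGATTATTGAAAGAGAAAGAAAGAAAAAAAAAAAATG
MUT1314.1: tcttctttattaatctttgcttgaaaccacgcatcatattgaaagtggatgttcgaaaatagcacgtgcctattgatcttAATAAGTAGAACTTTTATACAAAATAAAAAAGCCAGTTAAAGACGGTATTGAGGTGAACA
MUT1143.1 (chrXIII:23505-23644, plus), MUT511.2 (chrVI:113594-113733, minus), and MUT60.1 (chrII:196104-196243, minus) are shown because they differed between *SFL1* with *HEK2* and *SAN1* with *ROF1*, and MUT1312.1 (chrXV:329107-329246, minus) because it lies opposite to *RRP6*.
MUT1143.1: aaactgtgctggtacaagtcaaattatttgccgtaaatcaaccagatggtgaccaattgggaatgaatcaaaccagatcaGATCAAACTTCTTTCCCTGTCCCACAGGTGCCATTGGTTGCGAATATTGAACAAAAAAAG
MUT511.2: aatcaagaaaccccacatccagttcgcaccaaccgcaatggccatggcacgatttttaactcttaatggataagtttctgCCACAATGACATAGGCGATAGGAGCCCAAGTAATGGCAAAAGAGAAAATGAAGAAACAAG
MUT60.1: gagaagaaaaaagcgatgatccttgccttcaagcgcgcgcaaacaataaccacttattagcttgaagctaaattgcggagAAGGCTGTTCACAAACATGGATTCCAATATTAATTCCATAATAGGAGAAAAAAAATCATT
MUT1312.1: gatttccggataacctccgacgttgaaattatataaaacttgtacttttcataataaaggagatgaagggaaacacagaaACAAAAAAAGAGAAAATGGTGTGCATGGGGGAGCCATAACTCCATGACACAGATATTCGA
MUT64.1, the MUT with the highest level per length, is printed whole (chrII:197179-197347, minus), with the bases that lie in a Ty1 long terminal repeat in capitals.
MUT64.1: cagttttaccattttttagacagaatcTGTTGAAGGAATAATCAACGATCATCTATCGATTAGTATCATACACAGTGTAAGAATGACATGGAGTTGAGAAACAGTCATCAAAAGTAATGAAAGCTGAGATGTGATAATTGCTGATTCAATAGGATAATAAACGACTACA

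The 655 MUTs lay on all 16 nuclear chromosomes, 324 on the plus and 331 on the minus strand. They came from 550 numbered transcripts, of which 95 had several segments among the 655. Their length had a median of 369 bases (51 to 2641). Libraries held 6027147 to 35027485 counted pairs, of which 0.929 to 1.08% were on non-ORF features, and 3691 to 22097 pairs were on these MUTs. The median MUT had a median of 4.5 pairs per library, 201 MUTs had 10 or more, and 18 had 100 or more. The 10 most abundant MUTs held 29.3% of the MUT pairs. Each plasmid gene was highest in its own strain, with means over ORF pairs of 292 CPM for *TOS8* (53.6 to 86.1 in the other strains), 235 for *SFL1* (46.9 to 59.7), 265 for *HEK2* (81.1 to 88.9), 98.3 for *SAN1* (37.4 to 44.9), and 25.6 for *ROF1* (9.01 to 10.03). At this depth most MUTs were measured with few reads, and a difference that was not called was not detectable rather than absent.

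As a group, the MUTs took about the same share of the non-ORF pairs in every strain. It was 6.32% ± 0.26 (SD, n = 4) in *SFL1*, 6.10% ± 0.16 in *HEK2*, 6.45% ± 0.12 in *SAN1*, 6.43% ± 0.21 in *ROF1*, and 6.67% ± 0.06 in *TOS8*. *TOS8* had the highest mean and *HEK2* the lowest, but the *TOS8* libraries (6.57 to 6.72%) overlapped those of *SFL1* and *ROF1*. Non-ORF pairs were 0.929 to 0.966% of all counted pairs in the *TOS8* libraries and 0.986 to 1.08% in the others, without overlap. The share in *TOS8* is thus taken of a smaller part of each library. As CPM of all counted pairs, ORFs included, *TOS8* was not the highest, with a mean of 632 between 616 in *HEK2* and 665 in *SAN1*.

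**Figure D1:**
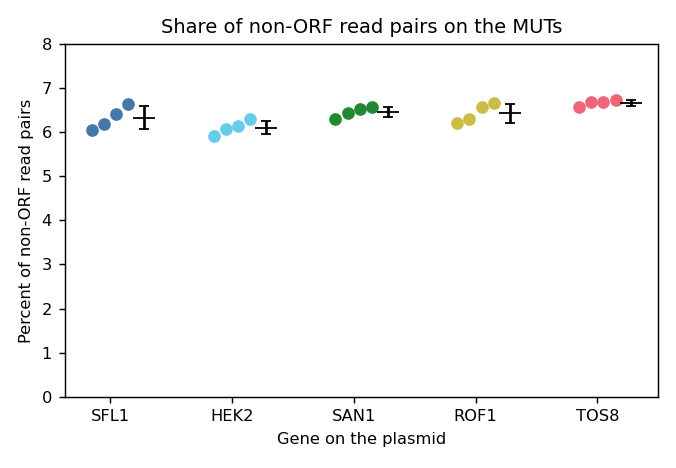
Percent of non-ORF read pairs (y axis) on the 655 MUTs in each library, by the gene on the plasmid (x axis). Points are libraries in ascending order and bars the mean ± SD of 4; all libraries lie between 5.92 and 6.72%.

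By position, 346 of the 655 MUTs (52.8%) overlapped an ORF on the opposite strand. Another 112 were convergent with their nearest ORF (tail to tail), 96 divergent (head to head), 63 upstream and 36 downstream of it on the same strand, and 2 overlapped it on the same strand. The highest levels per length were those of MUT64.1 (7681 CPM per kb), MUT203.1 (7123), MUT1317.2 (5657), MUT511.2 (4755), and MUT865.1 (4396). MUT64.1 and MUT203.1 lie tail to tail with *ACH1*, a mitochondrial acetate-handling enzyme gene, and *SRO9*, an RNA-binding protein gene. MUT1317.2 and MUT511.2 lie within or across ORFs on the other strand. MUT203.1 varied widely within *SFL1*, with 568, 5653, 4545, and 2452 CPM in the 4 libraries, and was not called in any contrast.

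The 4007 non-ORF features that reached 1 CPM were compared by the quasi-likelihood test of edgeR, and a difference was called at a Benjamini-Hochberg adjusted p below 0.01. Levels below are normalized CPM, over non-ORF pairs and after TMM scaling. Among the 5 strains, 83 of the 655 MUTs (12.7%) differed, against 15.8% of all features tested. Calls followed depth: 2.48% of the 161 MUTs with a median under 2 pairs were called, and 44.4% of the 18 with 100 or more. Of the 201 MUTs with a median of at least 10 pairs, 31.8% were called, against 27.7% of the 2023 features of that depth.

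In *TOS8*, 30 MUTs were higher and 20 lower than the mean of the other 4 strains. The 50 MUTs are 7.63% of the members, against 10% of all features tested (5.49% higher and 4.54% lower). The median log2 fold change of the 655 MUTs was 0.07, against 0.00 for all features. In 12 of the 30 that rose and 3 of the 20 that fell, the 4 *TOS8* libraries did not overlap the other 16; such separation was seen in 3.02% of all features and in these 15 of 655 MUTs. The ORF nearest to a MUT was called in the same contrast for 263 of 480 tested (130 higher and 133 lower), 54.8%, against 48.3% of all ORFs (24.5% higher and 23.7% lower).

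The largest rise was that of MUT1491.3 on chromosome XVI (546863 to 548263, minus strand), which covers 1281 bases of *NCR1*, a vacuolar membrane sterol protein gene, on the opposite strand. MUT1491.3 was at 1189.6, 1086, 1075, and 788 CPM in the *TOS8* libraries, and at 64.0 (lowest), 152 (median), and 394 (highest) in the other 16. Every *TOS8* library lay above every other library, and the 16 others spread over several fold among themselves. The log2 fold change was 2.40 ± 0.15 (adjusted p = 1.5e-20), where ± marks the SE of a log2 fold change here and in what follows. In whole colonies, more RNA per cell and more cells that make a transcript cannot be told apart. MUT1491.2, the next segment (545783 to 546839), was at 168, 223, 188, and 118 CPM in *TOS8* against 21.3 to 99.7 elsewhere, again without overlap, and rose by 1.63 ± 0.20 (adjusted p = 2.4e-09). *NCR1* itself was lower in *TOS8* (log2 fold change −0.50 ± 0.05, adjusted p = 4.6e-08 among ORFs). Per base, MUT1491.3 had 6.16% of the pairs of *NCR1*, so the sense mRNA was the more abundant transcript. Over the 20 libraries, the features with the highest Pearson r of log2(CPM + 10) to MUT1491.3 were *PRP46* (0.981), *SSA4* (0.980), and *ZPR1* (0.979), as a description of libraries that also share their strain and depth. MUT779.1 had a fitted change in *TOS8* of −2.61, but with 13 read pairs in all libraries together it was not called.

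MUT732.1 (chromosome VIII, 296889 to 297289, plus strand) ends 96 bases from the end of *PAL2* and contains a replication origin. It was at 310.3, 212, 218, and 194 CPM in *TOS8*, against 10.6, 55.6, and 89.7 (lowest, median, highest) in the others. The groups did not overlap, and the log2 fold change was 1.99 ± 0.20 (adjusted p = 2.5e-12). *PAL2* was also higher in *TOS8*, by 0.41 ± 0.05 (adjusted p = 7.4e-07). MUT1309.1 (chromosome XV, 298726 to 299190, minus strand) enters the end of *IRC10* from downstream, covering 113 of its bases. Its *TOS8* libraries were at 336, 219, 267, and 245 CPM and the others at 48.0 to 167, without overlap, a rise of 1.31 ± 0.17 (adjusted p = 1.3e-08). *IRC10* itself had a log2 fold change of −0.36 ± 0.11 that missed the threshold (adjusted p = 0.01002). MUT1314.1 is a nearly silent MUT that starts 44 bases from the start of *RTS1*, a phosphatase 2A subunit gene. It had 4, 9, 10, and 6 read pairs in the *TOS8* libraries and 0 to 5 in the others. These are few reads, but scaled for depth the *TOS8* libraries (25.3 to 51.7 CPM) lay above all others (0 to 19.4), and the log2 fold change was 2.29 ± 0.43 (adjusted p = 4.9e-05).

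Of the 63 MUTs that lie upstream of an ORF on its own strand, 5 were higher in *TOS8* (5.49% of all features tested were). MUT33.1 (chromosome I, 71071 to 71575, plus strand) ends 211 bases before *CDC19*, the pyruvate kinase gene. It was at 1203, 1093, 1124, and 906 CPM in *TOS8* and at 348, 449, and 596 (lowest, median, highest) in the others, well apart. The log2 fold change was 1.19 ± 0.11 (adjusted p = 3.5e-14), while that of *CDC19* was 0.13 ± 0.07 (adjusted p = 0.14). MUT15.1 lies in the same intergenic region on the other strand, upstream of *CYC3*, the cytochrome c heme lyase gene, and rose by 0.78 ± 0.15 (adjusted p = 5.4e-05), with *CYC3* at 0.13 ± 0.07 (adjusted p = 0.10). For MUT1026.1 and MUT616.1 the downstream gene rose too. MUT1026.1 rose by 1.05 ± 0.24 (adjusted p = 6.6e-04) and *ISA1*, a mitochondrial iron-sulfur cluster gene, by 0.67 ± 0.06, and MUT616.1 by 1.18 ± 0.28 (adjusted p = 0.0011) and *PXR1*, a ribosomal RNA processing gene, by 0.85 ± 0.09. MUT1495.1, 557 bases upstream of the meiotic cohesin gene *REC8*, overlaps a Ty1 long terminal repeat and a transfer RNA gene. It was at 51.7, 82.3, 109, and 75.9 CPM in *TOS8* and at 11.7 to 60.6 in the others, an overlapping set, and rose by 1.24 ± 0.27 (adjusted p = 4.1e-04; 0.013 without *TOS8* replicate 3). *REC8* had a log2 fold change of 0.01 ± 0.10 (adjusted p = 0.93).

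MUT816.1 and the ORF on the other strand rose together. It lies wholly inside *SIP4*, an activator of gluconeogenic genes. Its *TOS8* libraries were at 996, 737, 847, and 750.4 CPM and the others at 251, 390.2, and 705 (lowest, median, highest), without overlap. MUT816.1 rose by 0.93 ± 0.12 (adjusted p = 5.3e-09) and *SIP4* by 0.84 ± 0.11 (adjusted p = 2.3e-06).

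Of the MUTs that fell in *TOS8*, MUT1317.2, inside *DFG16* (a sensor in the alkaline pH pathway) on the opposite strand, was at 944, 1234, 1184, and 1079 CPM in *TOS8*, below all other libraries (1458, 1838, and 3133 as lowest, median, and highest). The log2 fold change was −0.74 ± 0.11 (adjusted p = 8.9e-07), with *DFG16* at −0.13 ± 0.05 (adjusted p = 0.021). Per base, this MUT had 305% of the pairs of the sense ORF. MUT6.1 (chromosome I, 3557 to 4925, minus strand), near the chromosome end, was at 698, 745, 768, and 797 CPM against 877, 1114, and 1403, and fell by 0.55 ± 0.10 (adjusted p = 3.0e-05) without overlap. MUT1479.2, opposite to the ceramidase gene *YDC1*, was at 0, 11.8, 14.9, and 21.1 CPM against 24.0 to 81.6. It fell by 1.73 ± 0.38 (adjusted p = 4.8e-04), and *YDC1* by 0.48 ± 0.04 (adjusted p = 2.1e-08). This MUT had 0.901% of the pairs of *YDC1* per base. Its levels in *TOS8* are few reads, at 0.0773 to 0.255 pairs per normalized CPM in those libraries. MUT1206.1, opposite to *TCB2*, fell by 1.12 ± 0.16 (adjusted p = 2.5e-07), and its *TOS8* libraries overlapped the others.

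MUT1312.1 covers 1132 bases of *RRP6* from its downstream side, on the opposite strand. It was at 439.6, 423, 386, and 367 CPM in *TOS8* and at 408, 541, and 752 (lowest, median, highest) elsewhere. The *TOS8* libraries were lower than all others except *SAN1* replicate 1, which was at 408. The MUT fell by 0.48 ± 0.11 (adjusted p = 9.3e-04; 0.016 without *TOS8* replicate 4), and *RRP6* rose by 0.21 ± 0.06 (adjusted p = 0.0032). Of 22 listed genes of RNA surveillance and decay, 5 rose and 5 fell in *TOS8*, shares near those of all ORFs (24.5% higher and 23.7% lower), with a median log2 fold change of 0.00 against −0.01 for all ORFs. The genes that rose were *RRP6*, its partners *LRP1* (0.69 ± 0.09) and *MPP6* (0.48 ± 0.07), the exosome helicase gene *MTR4* (0.26 ± 0.06), and *UPF3* (0.39 ± 0.08) of nonsense-mediated decay. Those that fell were *SEN1* (−0.65 ± 0.07), a helicase that ends noncoding transcription, the cytoplasmic exonuclease gene *XRN1* (−0.43 ± 0.05), and *SKI2*, *SKI3*, and *SKI8* (−0.26 to −0.18) of the cytoplasmic exosome cofactor.

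**Figure D2:**
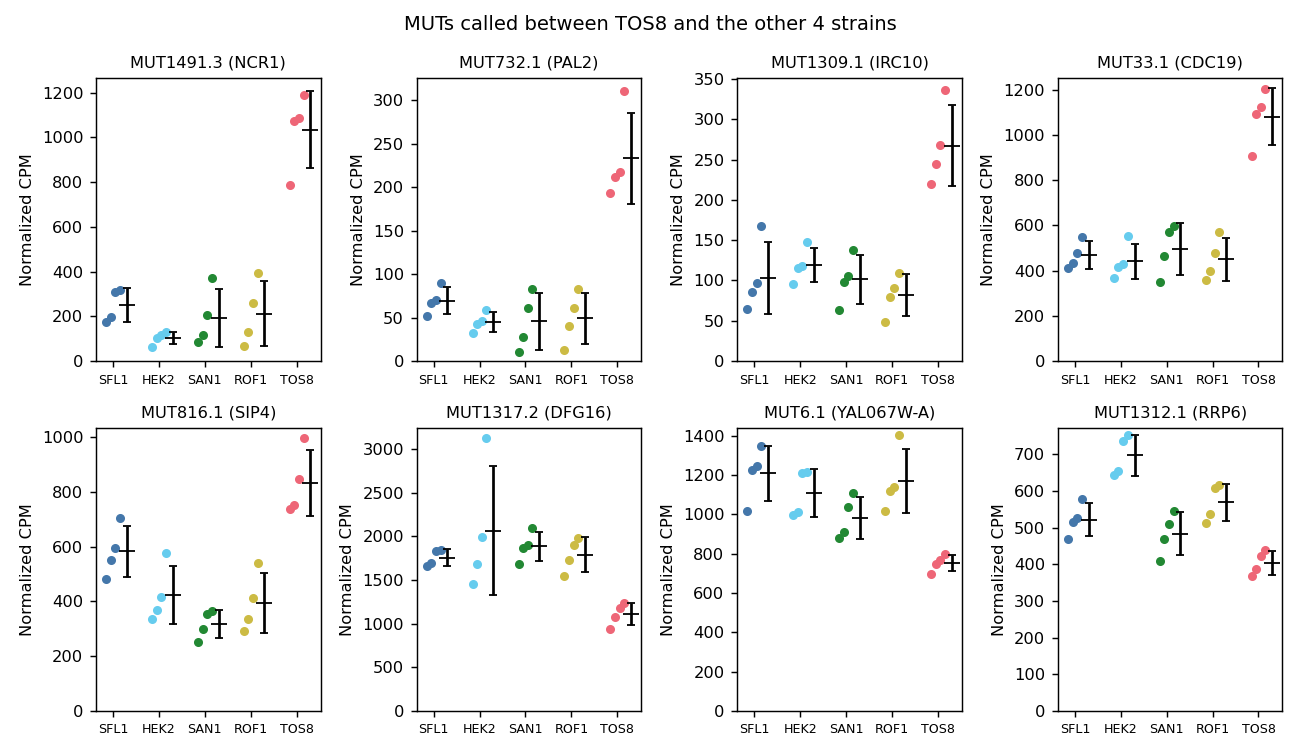
Normalized CPM (y axis, over non-ORF pairs) of 8 MUTs called in *TOS8*, by the gene on the plasmid (x axis), with the nearest ORF in brackets. Points are libraries in ascending order and bars the mean ± SD of 4. The first 5 panels rose in *TOS8* and the other 3 fell, and only MUT1312.1 has *TOS8* libraries within the range of the others.

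Between *SFL1* with *HEK2* and *SAN1* with *ROF1*, 45 MUTs were called, 21 higher and 24 lower in *SFL1* and *HEK2*. They are 6.87% of the members, against 7.94% of all features tested (4.12% higher and 3.82% lower). With DESeq2 the same contrast gave 31 calls, 11 higher and 20 lower. The median log2 fold change was 0.04 for the MUTs and 0.07 for all features. The 8 libraries of 1 pair of strains did not overlap the 8 of the other for 6 MUTs (5 of them called), against 1.90% of all features. The nearest ORF was called for 125 of 480 tested (70 higher and 55 lower), 26%, against 23.6% of all ORFs (11.8% higher and 11.7% lower).

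The clearest difference was that of MUT1143.1, a MUT of 241 bases on chromosome XIII (23585 to 23825, plus strand) at the gap between the alpha-tubulin gene *TUB3* and the phosphate transporter gene *PHO84*. It was at 108, 149, 103, and 106 CPM in *SFL1* and at 89.2, 75.6, 79.98, and 94.5 in *HEK2*. It was at 194, 265, 209, and 223 CPM in *SAN1* and at 421, 502, 464, and 357 in *ROF1*. The 8 libraries of *SFL1* and *HEK2* all lay below those of *SAN1* and *ROF1*, and those of *SAN1* all below those of *ROF1*. The log2 fold change was −1.67 ± 0.15 for *SFL1* and *HEK2* against *SAN1* and *ROF1* (adjusted p = 1.8e-14). It was −1.01 ± 0.18 for *SAN1* against *ROF1* (adjusted p = 3.5e-04; 0.017 without *SAN1* replicate 1 and 0.013 without *ROF1* replicate 2). In *TOS8*, MUT1143.1 was at 284, 286, 322, and 405 CPM, within the range of the others but above their mean by 0.90 ± 0.14 (adjusted p = 4.5e-07).

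MUT1143.1 overlaps the first 99 bases of *TUB3* on the opposite strand and lies within the RefSeq antisense RNA of *PHO84*, a noncoding transcript known to accumulate in cells without Rrp6. The other features of that strand, chosen here after the values of MUT1143.1 were seen, did not follow it. ST2421 (23944 to 26104), which runs opposite to *PHO84*, had strain means of 363 to 479 CPM, with a log2 fold change of 0.03 ± 0.13 for *SFL1* and *HEK2* against *SAN1* and *ROF1* (adjusted p = 0.94). *PHO84* was at −0.21 ± 0.13 (adjusted p = 0.19) and *TUB3* at −0.01 ± 0.06 (adjusted p = 0.93).

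MUT511.2 (chromosome VI, 112317 to 113653, minus strand) is the most abundant MUT and covers 1309 bases of *HXT10*, a hexose transporter gene, on the opposite strand. It was at 3357, 4814, and 6187 CPM (lowest, median, highest) in *SFL1* and *HEK2* and at 5756, 7254, and 9126 in *SAN1* and *ROF1*. The pairs of strains overlapped at 1 edge, where the highest *SFL1* library passed the lowest of *SAN1*. The MUT was lower by a log2 fold change of −0.61 ± 0.08 (adjusted p = 8.7e-09), and *HXT10* by −0.52 ± 0.11 (adjusted p = 7.5e-04). Per base, the MUT had 2193% of the pairs of *HXT10*, so here the antisense feature was by far the more abundant.

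Other MUTs that were lower in *SFL1* and *HEK2* without overlap lay opposite to the starts of genes. MUT1171.1, opposite to the splicing factor kinase gene *SKY1*, was at 272 to 532 CPM in *SFL1* and *HEK2* and at 575 to 849 in *SAN1* and *ROF1*, a log2 fold change of −0.80 ± 0.11 (adjusted p = 3.4e-08). MUT1570.1, opposite to *URN1*, was at 99.7 to 186 against 209 to 386 CPM (−0.88 ± 0.15, adjusted p = 1.2e-05). MUT331.1, opposite to the RNA-binding protein gene *WHI4*, was at 11.95 to 61.0 against 66.2 to 119 CPM (−1.31 ± 0.27, adjusted p = 2.1e-04). The log2 fold change of the MUT minus that of its ORF was −0.76 at *SKY1*, −0.81 at *URN1*, and −1.34 at *WHI4*, so the change of these MUTs was not matched on the sense strand.

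The MUT that was higher in *SFL1* and *HEK2* without overlap was MUT847.1, which lies 345 bases from the start of *PIR5*, a gene of the Pir cell wall protein family. It was at 22.3, 36.2, and 58.7 CPM (lowest, median, highest) in *SFL1* and *HEK2* and at 0, 9.68, and 16.0 in *SAN1* and *ROF1*. Since 1 normalized CPM is 0.0625 to 0.329 read pairs, these levels and their separation rest on few reads. MUT847.1 was higher by 1.97 ± 0.46 (adjusted p = 0.0011; 0.011 with DESeq2) and *PIR5* by 0.66 ± 0.11 (adjusted p = 1.2e-04). MUT624.1, opposite to the Golgi tethering gene *COG1*, was higher by 1.07 ± 0.20 (adjusted p = 5.8e-05), with *SFL1* and *HEK2* at 89.1 to 174 CPM and *SAN1* and *ROF1* at 48.0 to 90.8, which overlap slightly. *COG1* was at −0.03 ± 0.05 (adjusted p = 0.70).

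Several called MUTs lay beside cell cycle, thiamine, and filamentation genes and were lower in *SFL1* and *HEK2*, with overlap between the libraries. MUT1184.1 and MUT1184.2, beyond the end of the G1 cyclin gene *PCL1*, were at −0.92 ± 0.16 and −0.97 ± 0.22, and *PCL1* at −0.43 ± 0.10, all called. MUT226.3 near the thiamine synthesis gene *THI13*, all of whose 50-base stretches occur elsewhere in the genome, was at −1.22 ± 0.20, MUT1565.1 near the S-phase cyclin gene *CLB5* at −1.02 ± 0.22, and MUT1169.1 opposite to *MSS11*, an activator of the flocculin gene *FLO11*, at −0.76 ± 0.18. *MSS11* was at −0.22 ± 0.05 (adjusted p = 0.0022). These genes were picked by name after their values were seen.

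**Figure D3:**
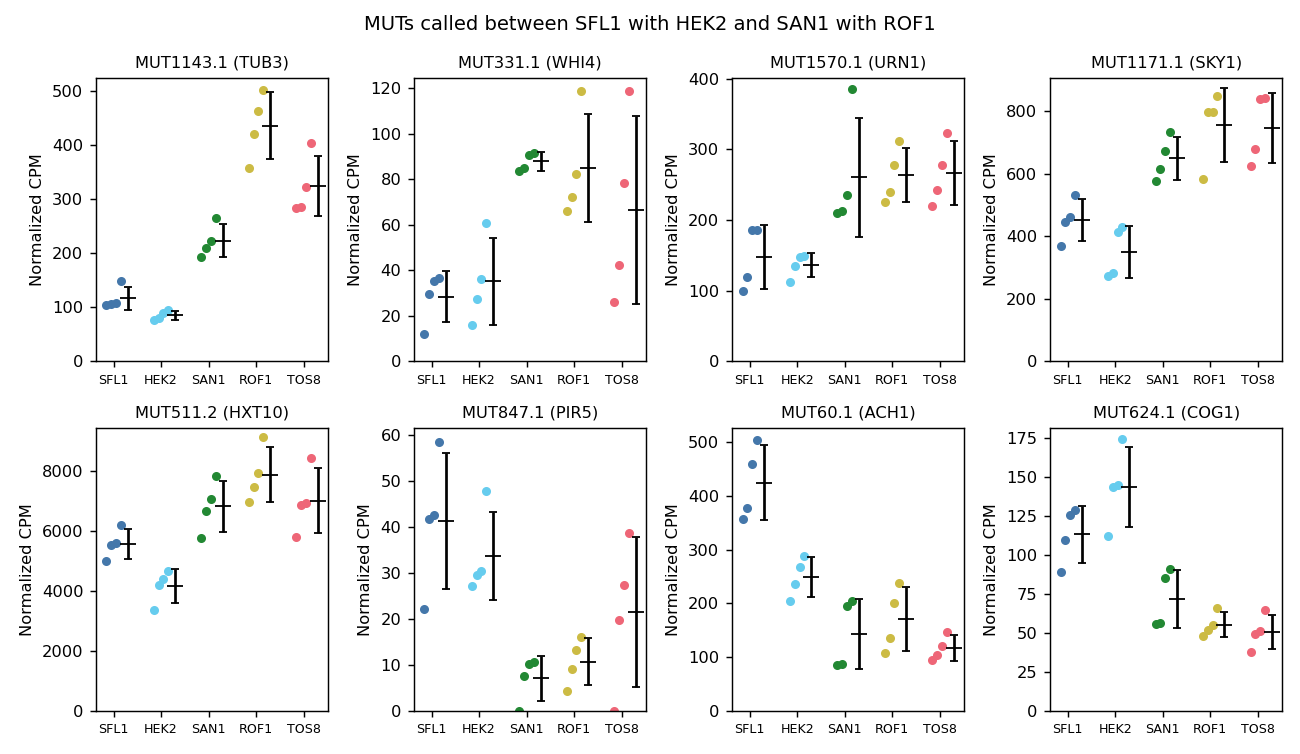
Normalized CPM (y axis, over non-ORF pairs) of 8 MUTs called between *SFL1* with *HEK2* and *SAN1* with *ROF1*, by the gene on the plasmid (x axis). Points are libraries in ascending order and bars the mean ± SD of 4. The first 5 MUTs are lower in *SFL1* and *HEK2*, and MUT847.1, MUT60.1, and MUT624.1 are higher.

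A row of 8 MUT segments lies on the minus strand of chromosome II (194115 to 197347), opposite to and downstream of *ACH1*. They were examined together because MUT60.1 and MUT60.2 were called in *TOS8* and between the pairs of strains. MUT60.1 had means of 424 ± 69.6 CPM in *SFL1*, 249 ± 36.9 in *HEK2*, 143 ± 65.9 in *SAN1*, 171 ± 59.4 in *ROF1*, and 117 ± 23.5 in *TOS8* (SD, n = 4). It was higher in *SFL1* and *HEK2* than in *SAN1* and *ROF1* by 1.14 (adjusted p = 8.7e-08) and lower in *TOS8* by 0.85 (adjusted p = 6.5e-04; 0.011 without *TOS8* replicate 3). MUT60.2 was at 392 ± 63.7, 249 ± 16.5, 132 ± 79.4, 252 ± 95.6, and 115 ± 23.2 CPM in the same order, with log2 fold changes of 0.83 (adjusted p = 2.1e-04) and −0.99 (adjusted p = 2.2e-04). The segments nearer to *ACH1* had the same order of the pairs of strains: MUT59.1 was higher in *SFL1* and *HEK2* by 1.06 (adjusted p = 0.0022) and MUT58.2 by 0.89 (adjusted p = 0.0094), while MUT58.1 was at 0.52 (adjusted p = 0.010). In *TOS8*, MUT58.1 fell by 0.81 (adjusted p = 4.6e-04). The far segments differed from them. MUT64.1, within the Ty1 repeat, had strain means of 1187 to 1489 CPM and was not called in any contrast, nor were MUT62.1 and MUT62.2. *ACH1*, on the other strand, was higher in *TOS8* by 0.30 ± 0.07 (adjusted p = 0.0017) and at −0.04 ± 0.07 between the pairs (adjusted p = 0.69). Adjacent segments are not independent measurements.

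**Figure D4:**
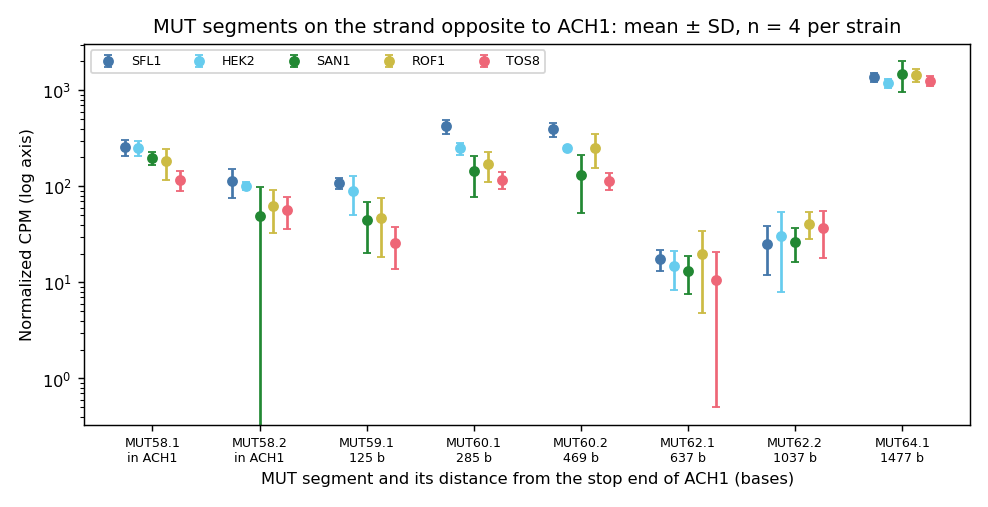
Normalized CPM (log y axis) of 8 MUT segments opposite to or beyond the end of *ACH1*, in order of position (x axis, with the distance from the stop end of *ACH1* in bases). Points are means and bars SD of 4 libraries in each strain, and a bar whose SD exceeds its mean runs off the axis. MUT60.1 and MUT60.2 have their highest means in *SFL1* and their lowest in *TOS8*, while MUT64.1 lies between 1187 and 1489 in all strains.

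Within the pairs of strains, few MUTs were called. Between *SFL1* and *HEK2*, 3 of 655 were called (0.458%, against 0.524% of all features tested, 0.225% higher and 0.299% lower). An unadjusted p below 0.05 was seen for 69 MUTs. The share of all features at that level was not counted, so no excess can be read from it. MUT60.1 was at 357 to 505 CPM in *SFL1* and 204 to 287.9 in *HEK2* (log2 fold change 0.83 ± 0.18, adjusted p = 0.0048). MUT288.1, at the transcription factor IIH gene *TFB1*, was at 111 to 137 in *SFL1* and 208 to 274 in *HEK2* (−0.88, adjusted p = 0.0042). MUT1514.1, near *QCR2* of respiratory complex III, was at 97.3 to 135 in *SFL1* and 160.0 to 235 in *HEK2* (−0.89, adjusted p = 0.0060). Each of the 3 was separated between the strains, as were 40 of the 655 MUTs and 6.11% of all features. With DESeq2 none of the 3 passed (adjusted p = 0.023 to 0.041), and without *SFL1* replicate 3 or *HEK2* replicate 1 no MUT was called. The call of MUT60.1 was also lost without *SFL1* replicate 4 (adjusted p = 0.032) or *HEK2* replicate 2 (adjusted p = 0.040), those of MUT288.1 and MUT1514.1 without *SFL1* replicate 1 or 2 or *HEK2* replicate 4 (adjusted p = 0.010 to 0.030), that of MUT288.1 without *SFL1* replicate 4 (adjusted p = 0.011), and that of MUT1514.1 without *HEK2* replicate 2 (adjusted p = 0.016).

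Between *SAN1* and *ROF1*, 2 of 655 MUTs were called (0.305%, against 0.574% of all features tested, 0.424% higher and 0.15% lower). An unadjusted p below 0.05 was seen for 45 MUTs, again without a count over all features. MUT1143.1, described above, was 1 of the 2 called. The other was MUT1048.1, antisense to the 25S ribosomal RNA gene, every 50-base stretch of which occurs elsewhere in the genome, so that its reads cannot be placed. It was at 91.8, 22.7, 0, and 53.2 CPM in *SAN1* and at 0, 0, 0, and 13.2 in *ROF1*, which overlap. Its call (4.33 ± 0.97, adjusted p = 0.0065) was lost without *SAN1* replicate 1 (adjusted p = 0.38), and without *SAN1* replicate 4 or any of *ROF1* replicates 1, 2, and 3 (0.014 to 0.12).

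Both in *TOS8* and between the pairs of strains, 14 MUTs were called. The share of all features tested that was called in both contrasts was not counted, so no excess can be read from the 14. These contrasts share libraries, so the values are given side by side only. MUT1206.1 was at −1.12 in *TOS8* and 0.54 between the pairs, MUT1489.1 (opposite to *ECM23*) at −1.01 and 0.68, MUT325.1 (near *PAU10*) at −0.90 and 0.67, and MUT624.1 at −0.89 and 1.07. MUT84.3, beyond the end of the mitochondrial ATP carrier gene *AAC3*, was at 0.83 in both.

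The 346 MUTs opposite to an ORF faced 294 ORFs. Of these MUTs, 250 began inside the ORF and 96 beyond its stop end, 145 ran out past its start, and 116 lay wholly inside it. Per base, the MUT had a median of 2.27% of the pairs of its ORF (quartiles 0.643 and 8.71). In 111 it was under 1%, where the part of wrongly stranded reads was not tested, and in 16 it was over 100%. Pairs that overlap several features of a strand were not counted, so the level of an ORF with neighbours on its own strand may be low.

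Antisense MUTs and their ORFs showed little relation across pairs. In *TOS8*, the Pearson r of the log2 fold changes was −0.05 over 330 pairs with a tested ORF, and −0.16 over the 108 pairs whose MUT had a median of at least 10 read pairs. These values are a description across pairs of features that share libraries. Of 29 called antisense MUTs with a tested ORF in *TOS8*, the ORF was called in the same direction for 6, in the opposite direction for 10, and not called for 13, where 48.3% of all ORFs were called. Between the pairs of strains, r was 0.10 and 0.04, and of 19 called MUTs the ORF was called in the same direction for 4, in the opposite for 1, and not called for 14, where 23.6% of all ORFs were called. These shares are near those of all ORFs. *NCR1* with MUT1491.3 moved in opposite directions in *TOS8*, and *SIP4* with MUT816.1 moved in the same direction.

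**Figure D5:**
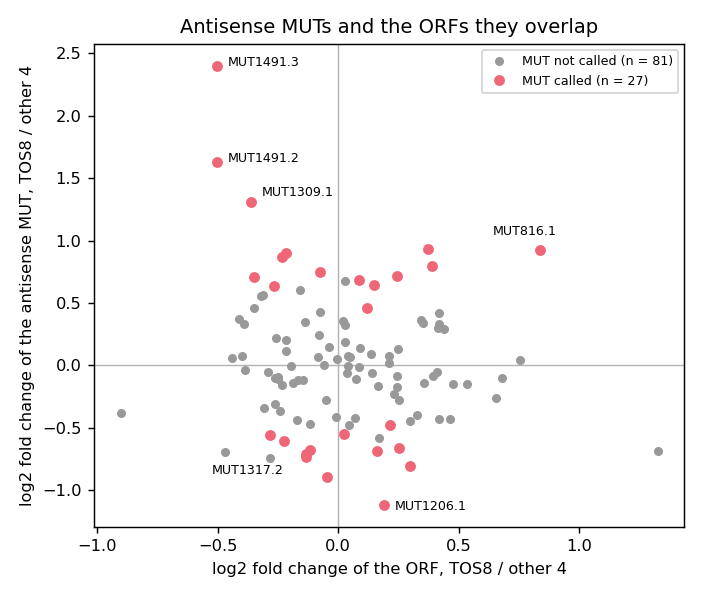
Log2 fold change in *TOS8* against the other 4 strains of 108 antisense MUTs (y axis) and of the ORF each overlaps (x axis), for MUTs with a median of at least 10 read pairs. Red points are the 27 called MUTs and grey points the 81 not called; the Pearson r is −0.16, and MUT1491.3 and MUT1491.2 are at the top left, opposite to *NCR1*.

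The nearest ORF was a listed meiotic gene for 6 MUTs, at 4 genes. MUT813.1 and MUT814.1, opposite to *IME2*, the meiotic kinase gene, had 16 and 37 read pairs in all libraries together and were not called in any contrast, while *IME2* was higher in *TOS8* by 0.63. MUT1099.1 and MUT1099.2, opposite to *SPO20*, a spore membrane gene, were at 0.20 ± 0.17 (adjusted p = 0.48) and 0.12 ± 0.21 (adjusted p = 0.79) in *TOS8*. *SPO20* itself was at −0.21 ± 0.11 there (adjusted p = 0.090). MUT1495.1 at *REC8* is described above. MUT725.1, 672 bases beyond the end of *SPO13*, a regulator of meiosis I, lies inside a Ty1 long terminal repeat of the opposite strand and was lower in *SFL1* and *HEK2* (−0.75 ± 0.17, adjusted p = 0.0011; 72.3 to 123 CPM against 90.8 to 208). Of the 36 listed meiotic genes tested, 8 were higher and 2 lower in *TOS8*, against 24.5% higher and 23.7% lower of all ORFs (median log2 fold change 0.12, against −0.01). In *SFL1* and *HEK2*, 11 were lower than in *SAN1* and *ROF1* and 0 higher, against 11.7% lower and 11.8% higher of all ORFs (median −0.21, against 0.00). The genes lower there included *SSP1* (−0.71 ± 0.07), *SPS1* (−0.63 ± 0.08), and *RIM4* (−0.57 ± 0.08), an RNA-binding activator of meiosis. Between *SFL1* and *HEK2*, 2 listed genes were higher in *SFL1* and 0 lower, where 249 of 5772 ORFs were called. They were *IME1* (0.78 ± 0.17, adjusted p = 0.0066) and *SPO20* (0.69 ± 0.13, adjusted p = 0.0018).

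The sequences before the MUTs were searched for motifs of meiotic regulators. In the 200 bases before the start, on either strand, the core of the URS1 site bound by Ume6, GGCGGC, was present in 39 of 655 MUTs (5.95%), against 3.22% of 3318 other tested non-ORF features and 3.15% of 6574 ORFs. The middle sporulation element bound by Ndt80, GNCACAAA, was present in 44 (6.72%), against 2.44 and 2.77%. TGTCA, the core bound by animal homeodomain proteins of the TALE class, was present in 205 (31.3%), against 34.7 and 28.7%. These shares are counts of letters, not of bound sites, and windows of neighbouring features can overlap. The windows are also unlike, since that of an ORF ends at the start of the ORF and not of its transcript. Of the 655 MUTs, 200 share a numbered transcript with another of the 655, and others have further segments below 1 CPM. For such segments the window can lie within the same numbered transcript. Among the 30 MUTs higher in *TOS8*, URS1 was present in 4, the middle sporulation element in 3, and TGTCA in 11, and among the 20 lower, in 0, 1, and 6. MUT1491.3 has TGTCA on the strand opposite to the MUT, 68 bases before its start, which is the tgaca of the sequence printed above. MUT1479.2, MUT847.1, and MUT1143.1 have the middle sporulation element, 33, 142, and 172 bases before the start.

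Other annotations also fell on the MUTs. Ty long terminal repeats overlapped 51 (7 called among the 5 strains), replication origins 45 (9 called), and transfer RNA genes 5 (1 called), and 68 lay within 25 kb of a chromosome end (8 called). In 16 MUTs over 50% of the 50-base stretches occur elsewhere in the genome, and 2 of these were called. Beside these counts stand the 12.7% of the 655 MUTs and the 15.8% of all features that were called among the 5 strains. Reads were not filtered on mapping quality, so reads from such copies can be counted at the MUT.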

How the data were processed

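The authors aligned stranded read pairs with Bowtie2 (version 2.1.0) to S288c (R64-1-1) extended with noncoding RNAs and F45 genes, and counted pairs per feature with featureCounts (version 1.4.0, Subread). They deposited the raw counts per feature, which are not normalized; reads of low mapping quality were kept. The source of the MUT annotation is not given in the sources used here. The samples are named biological replicates. The number that libraries share across strains was used as replicate number; its meaning is not given.

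Features whose name does not begin with Y were scaled to their own total (60220 to 350841 pairs per library). Those with a median of at least 1 CPM (4007) were normalized by TMM, and a mean per strain was fitted over all 20 libraries in edgeR 4.0.16 (limma 3.58.1, R 4.3.3). After TMM, 1 normalized CPM is 0.0625 to 0.329 pairs. The quasi-likelihood test was used for contrasts, and calls were made at an adjusted p (Benjamini-Hochberg) below 0.01. The 5772 ORFs above 1 CPM were fitted apart, the same way. MUTs near the limit were MUT1389.1 and MUT299.1 (1.43 CPM) above it, and MUT255.1 and MUT954.1 below. The SE printed is that of the fitted log2 fold change; levels are mean ± SD over libraries of a strain.

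The nearest ORF was that with most overlap, otherwise the closest. MUT25.2, with 0 counts, sits on a misspelled chromosome and was left out. Motifs, repeats, and annotations came from RefSeq R64; 5887 of 5919 matched ORFs have the same coordinates in the count table. MUTs were named by level per length, by the largest changes among called MUTs without overlap between groups (5 each way, 3 within pairs), by a listed nearest ORF, or by closeness to the CPM limit. MUT33.1, MUT816.1, MUT1312.1, MUT1206.1, MUT1048.1, and the others outside this rule were picked after values were seen. The members and lists were chosen with earlier results of these data known. The fit was tested on simulated data. Alternatives were DESeq2 (version 1.42.0), the likelihood ratio test of edgeR, RLE factors, TMM over all features, no filter, and a median of 10 CPM. Others were an adjusted p below 0.05, a fold of 1.5, and the replicate number as a block. Further ones left out each library, or the MUTs that overlap a feature on their own strand. Another 3 were chosen after seeing the data: a median of 10 pairs, no antisense MUTs under 1% of their ORF, and the block in the ORF fit.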

Additional observations from a re-analysis of the deposited data

Results flagged for a closer look

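Among 140 groups of 4 libraries (135 for the 27 MUTs examined in 5 strains, and 5 for the share of non-ORF pairs on MUTs), 8 had a library whose gap to the others was large for the range of its group. Chance gives about 1 in 20 for normally distributed values, which levels from few reads are not. *SAN1* replicate 4 was low for MUT1491.2 (21.3 CPM), and *SAN1* replicate 1 was high for MUT1479.2 (81.6 CPM). *HEK2* replicate 3, the library with the fewest pairs, was high for MUT847.1 (48.0 CPM). *SFL1* replicate 2 was high for MUT1143.1 (149 CPM) and low for MUT288.1 (111 CPM). *SAN1* replicate 2 was high for MUT1570.1 (386 CPM). For MUT1048.1 the *ROF1* and *TOS8* replicates 4 were at 13.2 and 12.6 CPM, while their other replicates were at 0. A group with only 1 library above 0 is always flagged by this rule, so these flags add nothing.

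The 90 ERCC features, which stand for spike-in control RNAs, held 404 counts over the 20 libraries, with at most 54 in a library. Whether control RNA was added is not given in the sources used here.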

How the results depend on the processing

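The calls of MUTs in *TOS8* (50) and between *SFL1* with *HEK2* and *SAN1* with *ROF1* (45) moved by over 1.5 times only at a false discovery rate of 0.05, to 79 and 73. Within the pairs of strains, where few MUTs were called, they moved more. Between *SFL1* and *HEK2* (3) the count was 8 with the likelihood ratio test, 0 with DESeq2 (69 MUTs at an unadjusted p below 0.05 in edgeR), 9 without the filter, 12 at a false discovery rate of 0.05, and 5 with a median of at least 10 pairs. Between *SAN1* and *ROF1* (2) it was 1 with DESeq2, with a median of 10 CPM, and with a median of 10 pairs. Leaving out each library in turn gave 68 to 87 calls among the 5 strains, 34 to 54 in *TOS8*, 33 to 46 between the pairs of strains, 0 to 6 between *SFL1* and *HEK2* (0 without *SFL1* replicate 3 or *HEK2* replicate 1), and 0 to 2 between *SAN1* and *ROF1* (0 without *SAN1* replicate 1 or *ROF1* replicate 2). Of 776 values of named log2 fold changes under alternatives, 743 kept their side of the threshold, 33 lost the call, and 0 turned direction. The cause was not tested.

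Whether the replicate numbers pair the libraries is not given, and the correlations did not settle it. Over non-ORF features the deviations of same-numbered libraries of different strains had mean correlations of −0.01 to 0.05. Of 20 libraries, 12 correlated best with their own number among the 4, and 9 did so over the MUTs alone. These counts are above an even spread over the numbers, which was not tested, and are a hint from the data and not the design. Over ORFs the means were −0.09 to 0.29, and every pair was above 0.1 in 1 of 10 strain pairs (*SFL1* with *ROF1*). There, 8 of 20 libraries correlated best with their own number, also above an even spread. With the number as a block, the calls were 85, 54, 46, 5, and 1 in the same order, and MUT1514.1 (adjusted p = 0.013) and MUT1048.1 (adjusted p = 0.011) were no longer called. In the ORF fit, a block added after seeing the data gave 2880 calls in *TOS8* (2787 without) and 1430 between the pairs of strains (1360 without), *IRC10* was then called (adjusted p = 0.0086), and of the meiotic genes *SSP1* in *TOS8* (adjusted p = 0.014) and *MAM1* between the pairs (adjusted p = 0.011) were not. Depth is a limit: 454 of the 655 MUTs had a median under 10 pairs per library.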
